A study of Mus musculus with 2 samples.

Results

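The genes described here are the 185 mouse protein-coding genes named Zfp with a number (zinc finger protein) that lie on chromosomes 7, 8, 13 and 17, out of 21951 protein-coding genes in the GENCODE M21 annotation of GRCm38. The rule reads only name and chromosome and no peak value, though it was set with earlier results of these data known: 89 lie on chromosome 7, 24 on chromosome 8, 31 on chromosome 13 and 41 on chromosome 17. On these chromosomes 140 of them have another of the 185 within 200 kb of their gene body, and 122 stand in 15 clusters of at least 3 such genes. TET2, an enzyme that oxidizes 5-methylcytosine in DNA, was mapped by chromatin immunoprecipitation and sequencing (ChIP-seq) in adipocytes grown in culture from adipose-derived stem cells (ASCs) of mouse inguinal white fat. The cells were differentiated with IBMX, dexamethasone and insulin, and were then kept in insulin. Both libraries of the study, 1 after TET2 immunoprecipitation and 1 of input chromatin, come from such cells, and the labels give no strain, age or genotype. The authors deposited 14103 peaks, intervals where TET2 fragments exceed the input, each with its −log10 p. With 1 library per group there is no replicate error and no test between conditions. The intervals below are 95% intervals that cover no error between libraries. For shares and densities they are exact and cover counting error only. For differences they are approximate and built from those limits, and for medians they come from ranks of the peaks.

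Most Zfp genes code for C2H2 proteins, in which a pair of cysteines and a pair of histidines hold a zinc ion and form a finger that contacts DNA, and a row of such fingers reads a longer site. The fingers of these proteins are usually coded by the last exon, without interruption. Many of them also carry a KRAB domain, which recruits TRIM28 and through it the histone methyltransferase SETDB1, so that the bound DNA is silenced, often at transposons. KRAB zinc finger genes arose by repeated local duplication and stand in clusters of near copies.

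The finding turns on 2 kinds of sequence, promoters and the coding part of last exons, and examples of each with and without a peak are printed here. Of the last exon stretches, that of Zfp366 codes for no finger. The promoters come from RefSeq on GRCm38, run from 250 bases before to 50 after the transcription start site (TSS), 5′ to 3′ on the strand of the gene, and have each CG in capitals; 163 of the 185 genes have an entry. Zfp382 (chr7:30121682-30121981, plus strand) has 245 of these 300 bases inside a TET2 peak, Zfp511 (chr7:140036141-140036440, plus strand) all 300, Zfp868 (chr8:69625126-69625425, minus strand) 297 and Zfp709 (chr8:71881818-71882117, plus strand) all 300. Zfp712 (chr13:67061121-67061420, minus strand), the first gene of the cluster on chromosome 13, has no peak.
Zfp382: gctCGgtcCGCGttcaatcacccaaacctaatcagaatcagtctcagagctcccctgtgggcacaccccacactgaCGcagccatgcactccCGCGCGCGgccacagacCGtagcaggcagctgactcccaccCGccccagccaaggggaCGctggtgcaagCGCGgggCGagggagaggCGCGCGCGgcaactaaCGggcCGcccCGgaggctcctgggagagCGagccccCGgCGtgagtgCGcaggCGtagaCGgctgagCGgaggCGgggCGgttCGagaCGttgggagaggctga
Zfp511: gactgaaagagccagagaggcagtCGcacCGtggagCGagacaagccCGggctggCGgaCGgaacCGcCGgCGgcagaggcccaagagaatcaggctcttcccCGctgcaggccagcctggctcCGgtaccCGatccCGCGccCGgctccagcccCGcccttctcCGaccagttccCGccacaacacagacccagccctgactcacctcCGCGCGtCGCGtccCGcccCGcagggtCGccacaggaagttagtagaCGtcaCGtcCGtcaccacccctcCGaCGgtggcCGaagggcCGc
Zfp868: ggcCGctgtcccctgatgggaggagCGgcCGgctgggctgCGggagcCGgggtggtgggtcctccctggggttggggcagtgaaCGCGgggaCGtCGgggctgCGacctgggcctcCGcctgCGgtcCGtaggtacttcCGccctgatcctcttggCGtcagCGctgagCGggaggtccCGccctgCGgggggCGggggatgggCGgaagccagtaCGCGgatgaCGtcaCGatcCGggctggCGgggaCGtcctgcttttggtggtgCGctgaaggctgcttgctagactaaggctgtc
Zfp709: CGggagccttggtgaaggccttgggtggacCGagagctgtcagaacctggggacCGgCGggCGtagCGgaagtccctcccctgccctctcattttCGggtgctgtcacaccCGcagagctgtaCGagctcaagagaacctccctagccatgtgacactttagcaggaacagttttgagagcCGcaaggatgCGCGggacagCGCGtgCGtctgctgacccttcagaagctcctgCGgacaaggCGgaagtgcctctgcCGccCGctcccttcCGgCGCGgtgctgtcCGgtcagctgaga
Zfp712: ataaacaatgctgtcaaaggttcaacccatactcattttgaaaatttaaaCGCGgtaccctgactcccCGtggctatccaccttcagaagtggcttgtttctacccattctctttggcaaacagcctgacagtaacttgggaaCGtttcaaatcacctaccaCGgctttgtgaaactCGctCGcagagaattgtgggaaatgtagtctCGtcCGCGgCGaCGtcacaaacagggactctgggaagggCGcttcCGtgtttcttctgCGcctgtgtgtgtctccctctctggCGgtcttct
The promoters with a peak hold 32, 33, 29 and 23 CG and are 69.7%, 70.3%, 71.3% and 63.7% GC. The promoter of Zfp712, without a peak, holds 16 CG and is 50% GC. In these 300 bases the ratio of observed to expected CpG is 0.88, 0.91, 0.80 and 0.76 with a peak. In Zfp712 it is 0.86, so by this ratio its printed promoter is not poorer in CpG. These 5 promoters were picked with the peaks known, to show the sequence and not to compare it.

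The stretches of last exons below are 200 coding bases on GRCm38, 5′ to 3′ on the strand of the gene, with the codons of the zinc-binding cysteines and histidines in capitals. The first 4 are centred on the midpoint of a TET2 peak and lie wholly inside it: Zfp771 (chr7:127254083-127254282, plus strand), Zfp524 (chr7:5017966-5018165, plus strand), Zfp13 (chr17:23576295-23576494, minus strand) and Zfp366 (chr13:99246105-99246304, plus strand), the gene with the largest −log10 p of this kind. The stretch of Zfp712 (chr13:67041194-67041393, minus strand) is taken from the middle of its 20 fingers and has no peak.
Zfp771: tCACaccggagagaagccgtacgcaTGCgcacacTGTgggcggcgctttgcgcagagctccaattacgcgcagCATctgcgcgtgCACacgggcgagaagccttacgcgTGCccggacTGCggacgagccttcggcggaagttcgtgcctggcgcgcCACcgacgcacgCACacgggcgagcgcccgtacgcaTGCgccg
Zfp524: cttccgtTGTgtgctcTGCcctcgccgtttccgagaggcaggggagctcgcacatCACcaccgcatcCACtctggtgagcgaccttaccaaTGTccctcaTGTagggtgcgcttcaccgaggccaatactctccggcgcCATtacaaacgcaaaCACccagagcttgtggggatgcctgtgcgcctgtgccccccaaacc
Zfp13: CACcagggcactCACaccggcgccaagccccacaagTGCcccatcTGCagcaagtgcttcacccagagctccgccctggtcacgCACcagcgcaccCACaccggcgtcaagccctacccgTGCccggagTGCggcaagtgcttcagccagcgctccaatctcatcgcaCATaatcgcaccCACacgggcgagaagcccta
Zfp366: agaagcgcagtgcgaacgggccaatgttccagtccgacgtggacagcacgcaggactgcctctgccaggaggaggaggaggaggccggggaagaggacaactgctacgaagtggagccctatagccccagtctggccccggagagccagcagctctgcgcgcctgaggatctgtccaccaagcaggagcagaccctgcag
Zfp712: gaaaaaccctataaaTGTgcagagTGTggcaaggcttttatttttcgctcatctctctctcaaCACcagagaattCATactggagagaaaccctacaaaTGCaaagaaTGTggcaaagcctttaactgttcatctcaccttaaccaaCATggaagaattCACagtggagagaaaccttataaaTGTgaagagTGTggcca
Zinc-binding codons number 10, 8, 10, 0 and 10 in the order printed. Zfp771, Zfp524, Zfp13 and Zfp366 hold 33, 13, 15 and 11 CG in their 200 bases, at 69%, 61%, 65.5% and 64.5% GC, whereas Zfp712 holds 1 CG at 40.5% GC. The fingers of Zfp712 and of Zfp771 match the same pattern of cysteines and histidines in DNA of different composition.

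At least 1 TET2 peak lay at 44 of the 185 Zfp genes (23.8%, 17.8 to 30.6), with its midpoint within 1 kb of a TSS of the gene or, failing that, in its exons or introns. Of all protein-coding genes, 34.8% had such a peak. The 44 genes were served by 54 distinct peaks in 55 pairs of gene and peak: 25 pairs at promoters, 19 in last exons, 3 in internal exons and 8 in introns, and none in first exons outside the promoter window. The other 141 genes had none, and the TSS of these lay a median of 59.4 kb from the nearest peak midpoint, the closest 2.31 kb and the farthest 600 kb away. Peaks in more than 1 kind of place occurred at 8 genes, which are Zfp444, Zfp296 and Zfp668 (promoter and last exon), Zfp710 (promoter, intron and internal exon), Zfp536 and Zfp131 (promoter and intron), Zfp423 (promoter and internal exon) and Zfp366 (internal and last exon). Zfp319 had 2 peaks, both in its last exon.

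Promoter peaks were scarcer at these Zfp genes than at other genes. A promoter peak, with its midpoint no more than 1 kb from a TSS, was found at 25 of the 185 (13.5%, 8.94 to 19.3), where the share of all protein-coding genes was 24.6%. Other protein-coding genes of the same 4 chromosomes had 22.6% (21.4 to 23.8), and the 180 Zfp genes of other chromosomes 23.3% (17.4 to 30.2). The difference from all other protein-coding genes was -11.1 percentage points (-15.7 to -5.33), with an interval that lies below 0. The interval of the 180 Zfp genes elsewhere overlaps that of the 185. By chromosome the share was 11.2% on chromosome 7 (10 of 89, against 18.4% of other coding genes there), 29.2% on chromosome 8 (7 of 24, against 27.9%), 6.45% on chromosome 13 (2 of 31, against 26.5%) and 14.6% on chromosome 17 (6 of 41, against 22.2%). Only on chromosome 13 does the interval of the Zfp genes (0.791 to 21.4) exclude the share of the other genes of the chromosome.

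**Figure D1:**
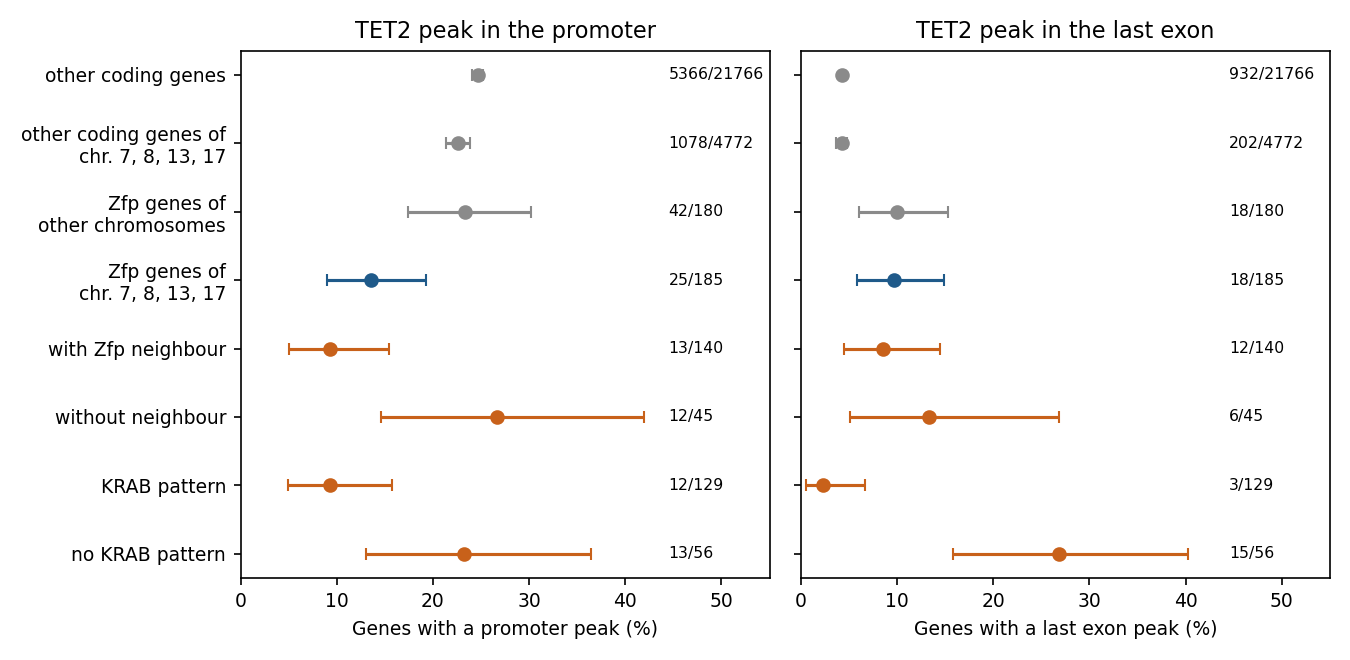
Percent of genes with a TET2 peak in the promoter (left) and in the last exon (right) in each group of genes, with exact 95% intervals as bars and the number of genes with a peak of all genes in the group at the right. Grey marks comparison groups, blue the 185 Zfp genes and orange their subsets; the promoter share of genes with a Zfp neighbour (9.29%) lies below that of genes without one (26.7%), and the last exon share of genes with a KRAB pattern (2.33%) below that of genes without it (26.8%).

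The largest −log10 p at a promoter belonged to Zfp598, which codes for a ubiquitin ligase that senses collided ribosomes, with 10.5 at a midpoint 427 bp after a TSS. Of all deposited peaks, 900 had a larger value. The 9 next genes were Zfp53 (10.0), Zfp1 (9.06), Zfp101 (8.85), Zfp866 (8.51), Zfp710 (8.21), Zfp511 (7.94), Zfp606 (7.72), and Zfp536 and Zfp948 (7.34 each). Zfp536 codes for a repressor of neuronal differentiation, and its peak lay at -496 bp from the TSS of a short transcript, in the last of the 6 exons of its longest coding transcript. The promoter peaks with the smallest values were those of Zfp963 (4.12) and of Zfp868, Zfp423 and Zfp131 (4.73 each). The median of the 24 distinct promoter peaks was 6.53, against 6.83 for promoter peaks of other coding genes. The 95% interval of the first median, 5.89 to 7.94, includes the second.

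The promoter peaks lay close to the TSS: 16 of 25 midpoints were at or after it and 9 before it, 13 within 200 bp, with a median of 57 bp after the TSS against 86 bp at other coding genes. Some peaks were shared with a neighbour, and their place does not assign them to 1 gene. Zfp668 and Zfp646 share 1 peak of −log10 p 6.59. The peaks of Zfp511, Zfp866 and Zfp296 were also within 1 kb of a TSS of Tubgcp2, Atp13a1 and Gemin7, respectively. All promoter peaks were GC-rich, from 53.2% to 74.8% GC with a median of 64.8%, against 59.5% over all peaks.

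Genes of the list that stand alone had promoter peaks more often than genes with a neighbour of the list. Among the 140 with another Zfp gene within 200 kb, 13 had a promoter peak (9.29%, 5.04 to 15.4), and among the 45 without one 12 had (26.7%, 14.6 to 41.9). The difference was -17.4 percentage points (-33.2 to -3.88). It kept its sign with a joining distance of 50 kb, with peaks of −log10 p of at least 8 and without chromosome 7, but the interval then reached 0. The 12 genes that stand alone and had a promoter peak include Zfp598, Zfp1, Zfp710, Zfp536, Zfp57, Zfp423 and Zfp318, which codes for a regulator of immunoglobulin D transcripts in B cells. In the 15 clusters, 9 of 122 genes had a promoter peak (7.38%, 3.43 to 13.5): Zfp444, Zfp382, Zfp819, Zfp868, Zfp963, Zfp866, Zfp709, Zfp53 and Zfp948.

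The split by protein domain ran along the split by place. A KRAB sequence pattern was found in 129 of the 185 translated coding sequences, a pattern chosen after the peaks had been seen and which may miss some KRAB domains. Of genes with the pattern, 12 had a promoter peak (9.30%, 4.90 to 15.7), and of the 56 without it 13 (23.2%, 13 to 36.4). Genes with the pattern had a promoter peak at 10 of 111 with a neighbour and 2 of 18 alone. Genes without it had one at 3 of 29 with a neighbour and 10 of 27 alone (37.0%, 19.4 to 57.6). The 27 genes with neither the pattern nor a neighbour had the highest share of these 4 subsets, with an interval that overlaps those of 2 others (1.38 to 34.7 for genes with the pattern that have no neighbour, 2.19 to 27.4 for genes without it that have a neighbour) and includes the 24.6% of all coding genes. Among genes with a finger, the share with a promoter peak fell as the number of fingers rose. It was 7 of 16 with 1 to 4 fingers (43.8%, 19.8 to 70.1) and 7 of 42 with 5 to 9 (16.7%, 6.97 to 31.4). With 10 or more it was 11 of 123 (8.94%, 4.55 to 15.4). Intervals of adjoining groups overlap, and 0 of the 4 genes with no finger had a promoter peak, outside this order.

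CpG content and copy number moved with the same split. The ratio of observed to expected CpG was taken in the 1 kb around 1 TSS per gene, that of the longest coding transcript. Its median was 0.512 in genes with the KRAB pattern and 0.709 in those without. A ratio of 0.6 or more went with a promoter peak at 21 of 88 Zfp genes (23.9%, 15.4 to 34.1), against 39.2% of other coding genes in that band. Between 0.4 and 0.6 the count was 2 of 53 Zfp genes (3.77%, 0.460 to 13) against 25.6%, and under 0.4 it was 2 of 44 against 6.90%. A promoter peak counts at any TSS of the gene, so the band need not describe the promoter that carries the peak. The 2 genes under 0.4 with a peak, Zfp57 (0.24) and Zfp646 (0.28), had peaks with a CpG ratio of 0.79 and 0.81. In the upper 2 bands the share of these Zfp genes lay below that of other genes in the same band, beyond the counting interval. Zfp genes of other chromosomes had 34 of 106 (32.1%, 23.3 to 41.8) and 5 of 26 (19.2%, 6.55 to 39.4) in these bands. Both intervals overlap those of the 185 and include the share of other coding genes. At 0.6 or more it was 10 of 47 with the KRAB pattern (21.3%, 10.7 to 35.7) and 11 of 41 without (26.8%, 14.2 to 42.9), with overlapping intervals. At the TSS of the longest coding transcript, the promoter of 39 of the 185 had at least 1 further match of 100 bp and 90% identity in the genome. None of the 39 had a promoter peak at any TSS, which allows a share of up to 7.69% by a limit of 3 counts (exact upper limit 9.03%). Of the 146 without such a copy, 25 had one (17.1%, 11.4 to 24.2), and of the 77 that also had a CpG ratio of 0.6 or more, 21 (27.3%, 17.7 to 38.6). Reads from copied sequence can be lost in alignment, and the part of copies and of CpG content in the scarcity was not tested.

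**Figure D2:**
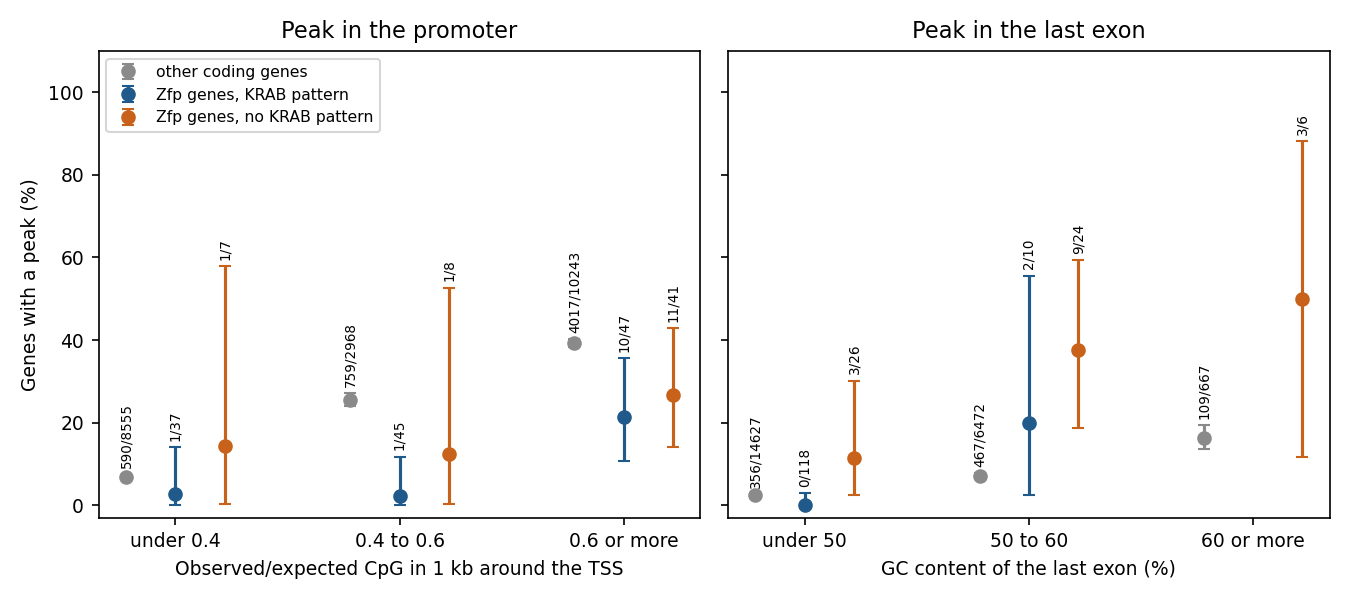
Percent of genes with a TET2 peak in the promoter (left) and in the last exon (right), for other coding genes (grey), Zfp genes with the KRAB pattern (blue) and without it (orange). Genes are grouped by observed to expected CpG around the TSS of the longest coding transcript (left) or by GC content of the last exon (right). Bars are exact 95% intervals, the numbers above them give genes with a peak of all genes in the band, and a band of 1 gene, with the KRAB pattern and over 60% GC, is not drawn; both shares rise along the axis in other coding genes.

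Last exon peaks were more frequent at the Zfp genes than at other genes. A peak midpoint lay in the last exon, over 1 kb from any TSS of the gene, at 18 of the 185 (9.73%, 5.87 to 14.9), with 4.33% of all protein-coding genes. The Zfp genes of other chromosomes gave 18 of 180 (10%, 6.04 to 15.3). The last exons of the 185 are long, with a median of 2494 bp against 1107 bp in other coding genes. Per length the difference was within the interval: 36 last exon peaks per Mb of last exon (21.7 to 56.2) against 26.6 (24.9 to 28.3), a difference of 9.37 (-5.05 to 29.6). The interval of the difference per length includes 0.

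Within the list the last exon peaks divided by the KRAB pattern. Genes without the pattern had one at 15 of 56 (26.8%, 15.8 to 40.3) and genes with it at 3 of 129 (2.33%, 0.482 to 6.65), a difference of -24.5 percentage points (-38.1 to -12.7). With peaks of −log10 p of at least 8 alone it was -4.58 (-14.1 to 0.895), and the interval then included 0. Per Mb of last exon there were 106 peaks (60.9 to 173) without the pattern and 7.94 (1.64 to 23.2) with it. The 3 genes with the pattern were Zfp324, Zfp689 and Zfp13. A neighbour made less difference here, with 9 of 29 genes without the pattern that had a neighbour and 6 of 27 that had none. Copies moved with the pattern too: 46 of the 129 and 7 of the 56 had a last exon with a further match in the genome. Among genes with no such match the counts were 3 of 83 with the pattern (3.61%, 0.752 to 10.2) and 14 of 49 without (28.6%, 16.6 to 43.3).

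The largest −log10 p in a last exon was that of Zfp366, which codes for a protein known from dendritic cells, with 10.5. It was followed by Zfp524 (9.39), Zfp324 (8.46), Zfp575 (8.31), Zfp319 (7.94 and 6.15 in 2 peaks), Zfp771 (7.92), Zfp553 (7.53), Zfp296 (7.41), Zfp689 (7.21) and Zfp444 (7.05). The other 8 genes, with values from 4.84 to 6.83, were Zfp213, Zfp13, Zfp358, Zfp787, Zfp668, Zfp827, Zfp628 and Zfp276. The median of the 19 peaks was 7.05, against 6.81 for last exon peaks of other coding genes and 5.79 at the Zfp genes of other chromosomes. The peak at Zfp366 is also the one of these 18 genes whose last exon has a further match in the genome.

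Most of these peaks lay over the coding part of the exon and its fingers. The midpoint was in coding sequence in 18 of the 19 (94.7%, 74.0 to 99.9), while the coding part makes up 38.5% of the last exon bases of these 18 genes. The exception was Zfp827, whose last exon holds no coding sequence in the transcript used. In other coding genes 60.1% (56.9 to 63.3) of 925 last exon peaks had a coding midpoint. Of the last exon bases of all other coding genes, with or without a peak, 22.7% are coding, to be set beside the 47.5%. At least 1 finger began inside 17 of the 19 peaks, and 73 fingers did in all. Peaks are at least 375 bp long, longer than a finger, so a peak over adjoining fingers holds a finger start whatever its exact place. The peak of Zfp771 spanned all 8 of its fingers and those of Zfp13 and Zfp358 held 7 each; Zfp366 and Zfp827 have no finger in the last exon. The midpoint lay past the first 10% of the exon in 13 of 19. The 19 peaks were 58.7% to 70.9% GC with a median of 62.9%, and the peak of Zfp771 held 137 CG in its 1043 bp.

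**Figure D3:**
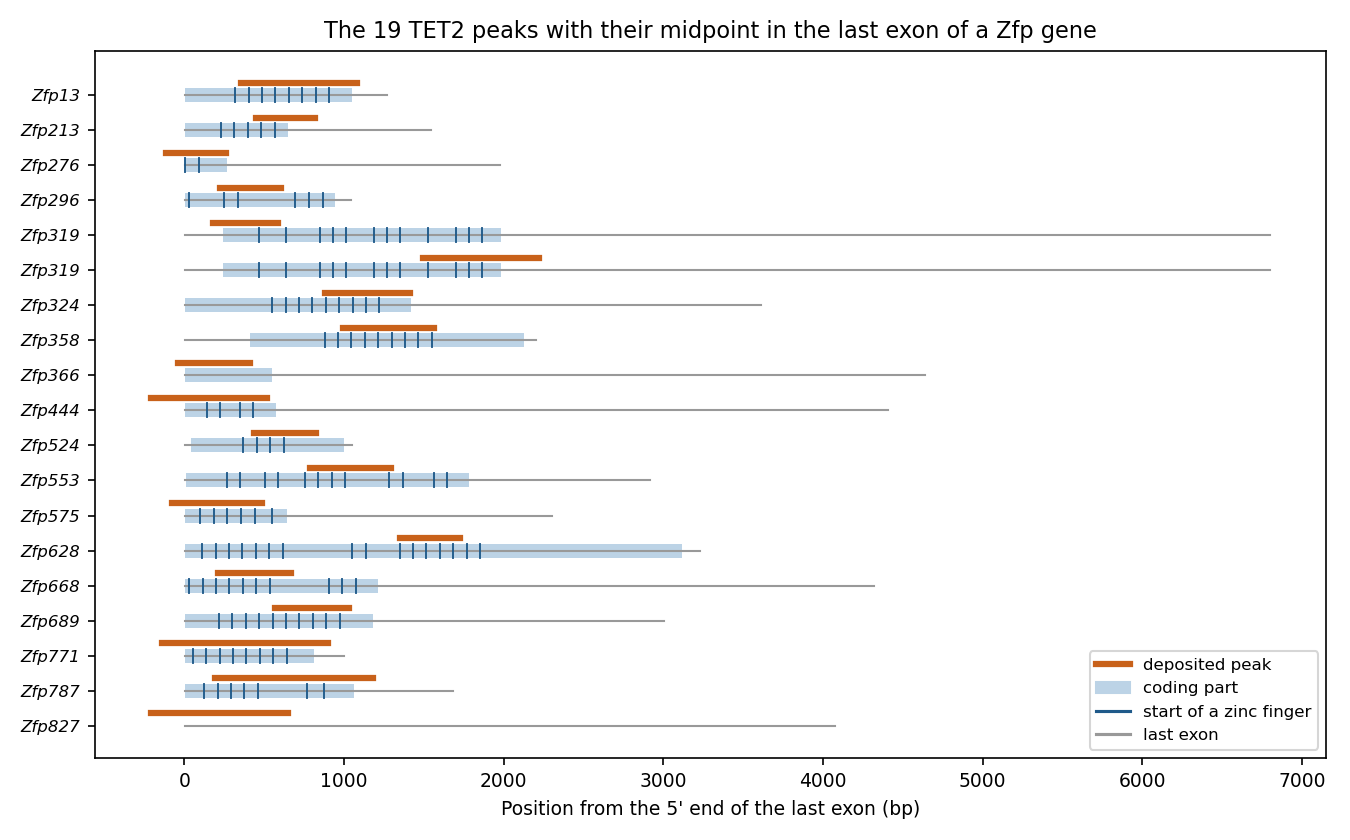
The last exons of the 18 Zfp genes with a last exon peak, 1 row per peak, in bp from the 5′ end of the exon, with the coding part in light blue, the start of each C2H2 finger as a blue line and the deposited TET2 peak in orange. In 18 of the 19 rows the middle of the peak lies over the coding part, and in Zfp771 the peak covers all 8 fingers.

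Last exons with a peak were richer in GC than those without, with overlapping ranges (46.7% to 69.3% and 32.9% to 69.7%). The median GC content was 55.8% in the 18 exons with a peak and 41.7% in the 167 without, and 39.7% in genes with the KRAB pattern against 51.9% in those without it. Of the 144 Zfp genes whose last exon is under 50% GC, 3 had a last exon peak (2.08%, 0.432 to 5.97), close to the 2.43% of other coding genes in that band. From 50% to 60% GC it was 11 of 34 (32.4%, 17.4 to 50.5) against 7.22%, and at 60% or more 4 of 7 (57.1%, 18.4 to 90.1) against 16.3%. Zfp genes of other chromosomes had 14 of 37 from 50% to 60% (37.8%, 22.5 to 55.2) and 0 of 2 at 60% or more. These shares are per gene, and the last exons of the Zfp genes are longer than those of other genes. With the KRAB pattern, 0 of 118 genes under 50% GC had a last exon peak, which allows a share of up to 2.54% by a limit of 3 counts (exact upper limit 3.08%). Without the pattern 3 of 26 had one in that band (11.5%, 2.45 to 30.2). From 50% to 60% GC it was 2 of 10 with the pattern (20%, 2.52 to 55.6) and 9 of 24 without (37.5%, 18.8 to 59.4). The intervals with and without the pattern overlap in both bands.

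Counted over the whole coding part of last exons, the 185 Zfp genes and other coding genes had overlapping densities. They were 71.7 peaks per Mb (42.5 to 113) and 70.4 (64.7 to 76.4). Where the GC content of this part was at least 50%, Zfp genes had more peaks per base than other genes. Coding parts of last exons of at least 50% GC had 261 peaks per Mb (155 to 413) in the 185 Zfp genes, 287 (170 to 454) in the Zfp genes of other chromosomes and 127 (117 to 138) in other coding genes. Under 50% GC there were 0 peaks in 0.182 Mb at the Zfp genes (0 to 20.3 per Mb). Other coding genes had 4.28 per Mb there, inside that interval. In narrower bands the intervals overlapped: from 55% to 60% GC the Zfp genes had 298 per Mb (96.8 to 696) and other genes 95.1 (80 to 112), and at 60% or more 552 (294 to 944) and 284 (256 to 315). In the band from 50% to 55% the Zfp genes had 0 peaks in 0.0286 Mb (0 to 129 per Mb). Other coding genes had 33.3 per Mb (25 to 43.5), inside that interval, so the 0 counts do not set an order. The part of GC content in the difference between genes with and without the KRAB pattern was not tested.

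Peaks in internal exons were rare. They were found at 3 of 185 genes (1.62%, 0.336 to 4.67), with 3.21% of all protein-coding genes: Zfp710 (10.3, exon 2 of 5), Zfp423 (7.79, exon 4 of 8) and Zfp366 (6.63, exon 2 of 5). All 3 midpoints were in coding sequence, none of the 3 genes has the KRAB pattern, and per Mb of internal exon there were 32.8 peaks (6.77 to 95.9) against 29.5 in other coding genes. Zfp423, which codes for a transcription factor of preadipocytes that also restrains the thermogenic genes of white fat cells, had its other peak at a promoter (4.73, 210 bp after a TSS). Zfp710 is the gene of the list with peaks in 3 kinds of place.

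Introns carried 8 peaks at 7 genes (3.78%, 1.53 to 7.64), with 8.79% of all protein-coding genes. Per Mb of intron this was 2.52 peaks (1.09 to 4.96) against 2.94 (2.83 to 3.05) in other coding genes, within the interval. The values were 10.2 at Zfp710, 7.34 at Zfp566, 6.04 at Zfp592, 4.12 in each of 2 peaks at Zfp536, 4.12 at Zfp141 and at Zfp131, and 4.0 at Zfp90. Their median of 4.12 lay below the 6.06 of intron peaks in other coding genes. The peak at Zfp141 was 85.1% repeat-masked, the sole peak of the list over 80%. Intron peaks were also the least GC-rich, with a median of 52.1%.

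**Figure D4:**
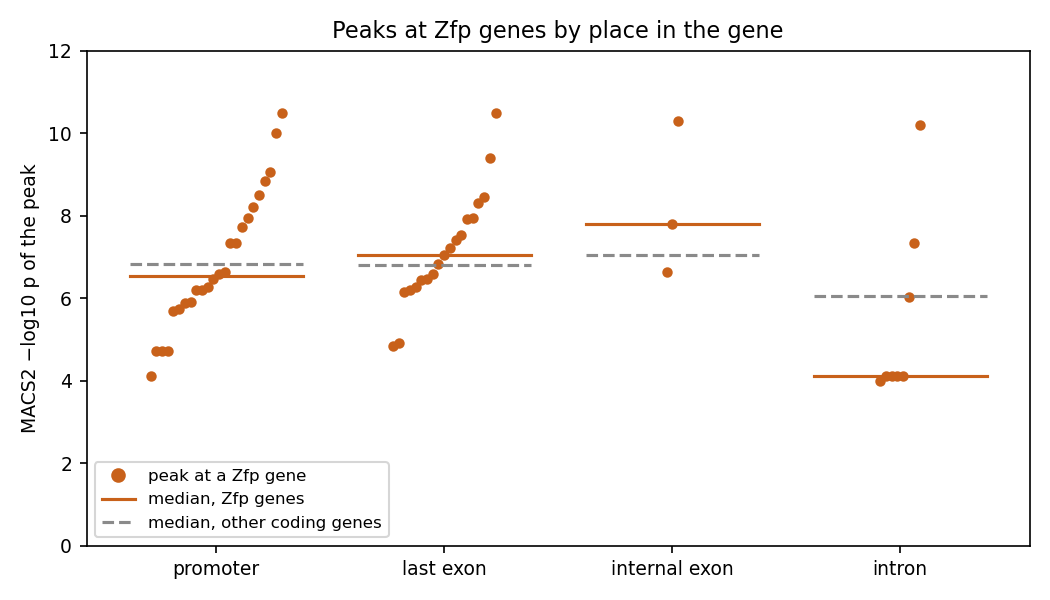
The −log10 p of each distinct TET2 peak at the 185 Zfp genes, by the place of its midpoint in the gene, in rank order within each place. Solid lines are the medians of these peaks (6.53, 7.05, 7.79 and 4.12) and dashed lines the medians at other coding genes (6.83, 6.81, 7.05 and 6.06).

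The cluster with the most genes, on chromosome 13 from Zfp712 to Zfp273, had no peak at any of its 19 genes. All 19 have the KRAB pattern. The cluster spans 788 kb and holds 1 peak, between its genes, or 1.27 per Mb (0.0321 to 7.07) against 4.98 on the whole chromosome. The TSSs of its genes lay a median of 245 kb from the nearest peak midpoint, against 21.4 kb for other coding genes of the 4 chromosomes. The median CpG ratio of its promoters was 0.396 and of its last exons the median GC content was 38.2%, and 6 promoters and 8 last exons have a further match in the genome. With 1 peak the interval of the cluster still includes the density of the chromosome.

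The other large clusters had a few peaks each. On chromosome 17, the 18 genes from Zfp677 to Zfp946, all with the KRAB pattern, span 1073 kb with 7 peaks, of which those of Zfp53 (10.0) and Zfp948 (7.34) were at promoters and the other 5 at no gene of the list. On chromosome 7, the 15 genes from Zfp84 to Zfp146 had a promoter peak at Zfp382 (6.21) and an intron peak at Zfp566 (7.34). On chromosome 8, 3 of the 5 genes from Zfp868 to Zfp866 had a promoter peak, Zfp868 (4.73), Zfp963 (4.12) and Zfp866 (8.51), all with the KRAB pattern. The cluster from Zfp628 to Zfp580 on chromosome 7, with no KRAB pattern in its 6 genes and a median last exon GC content of 61.2%, had last exon peaks at Zfp628 (4.91) and Zfp524 (9.39). In all, 4 of the 15 clusters, with 36 genes, had no peak at any of their genes.

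Per Mb, the clusters as stretches of the genome were not poor in peaks. Their spans together held 42 peaks in 5.03 Mb, 8.36 per Mb (6.02 to 11.3), against 5.91 (5.69 to 6.13) on the 4 whole chromosomes. The 13 clusters with a majority of KRAB genes had 7.55 per Mb (5.23 to 10.5) and the other 2 had 15.3 (6.63 to 30.2). The density counts every peak of a span: 19 of the 42 were assigned to a Zfp gene of the list and 23 were not. The spans run from the first to the last gene of a cluster and so are dense in genes. They hold 122 of the 185 Zfp genes, beside other coding genes, in 5.03 Mb. The 4 whole chromosomes hold 4772 coding genes beyond the 185 in 490 Mb. Peaks per gene were not compared.

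**Figure D5:**
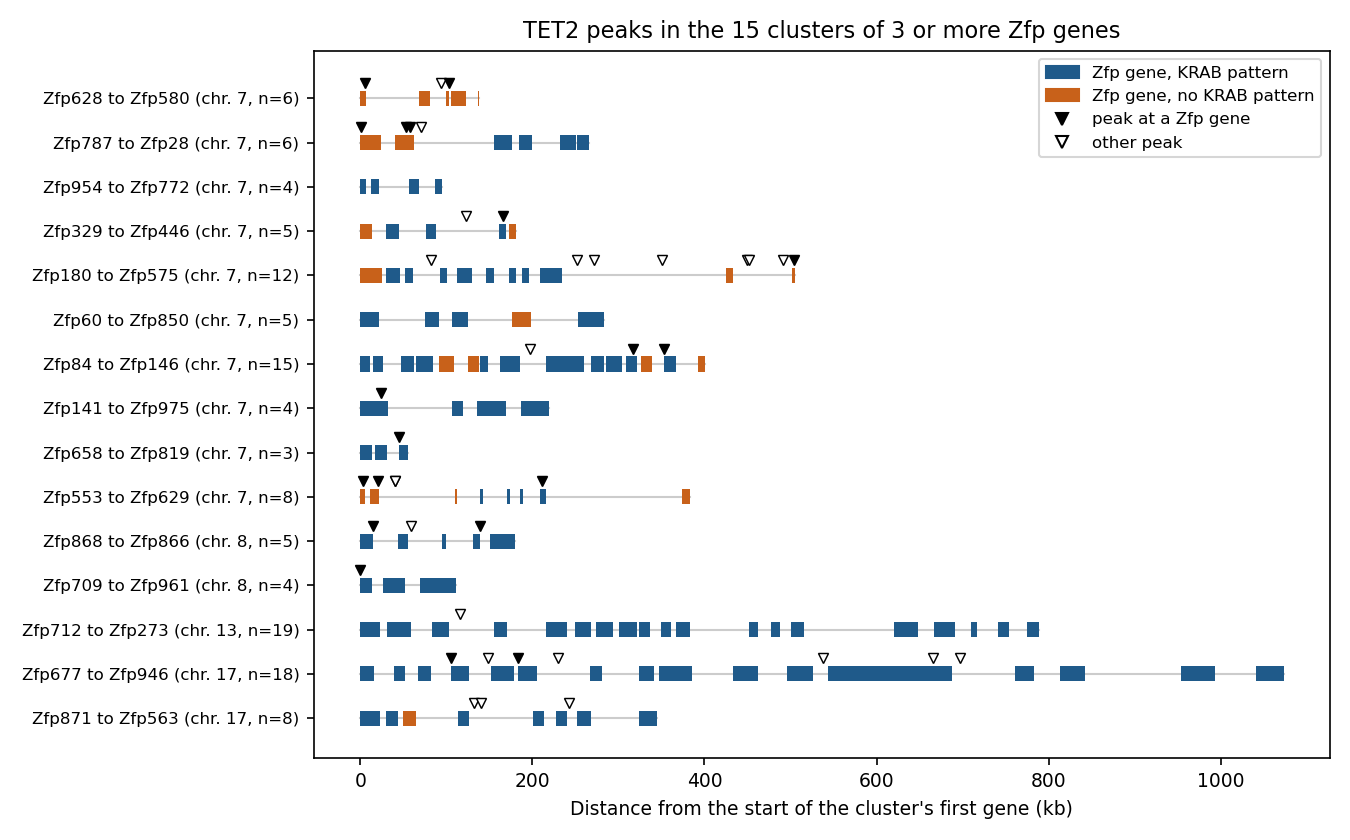
The 15 clusters of at least 3 Zfp genes, each drawn in kb from the start of its first gene, with genes of the list as boxes (blue with the KRAB pattern, orange without) and TET2 peaks with their midpoint in the span as triangles, filled where the peak is assigned to a gene of the list. The cluster from Zfp712 to Zfp273 on chromosome 13 shows 1 open triangle over 19 genes; the promoter peak of Zfp866 lies just outside its span and is not drawn.

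Of 6 genes of the list looked up for their known roles, 2 had a peak. Zfp57, a KRAB protein that keeps methylation at imprinted loci, had a promoter peak (6.21, at -162 bp from a TSS), and Zfp423 had the 2 peaks given above. No peak was found at Zfp568, a KRAB protein that represses a placental promoter of Igf2, at Zfp42 (Rex1), a marker of pluripotent cells, at Zfp36 (tristetraprolin), which speeds the decay of AU-rich mRNAs, or at Zfp703, which codes for a transcriptional co-repressor. Zfp36 and Zfp703 are among the 4 genes of the list with no match to the C2H2 finger pattern.

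The partners of KRAB proteins were also looked up. Of 18 genes of this silencing machinery, 9 had a promoter peak (50%, 26.0 to 74.0, with 24.6% of all protein-coding genes): Trim28 (6.76), which KRAB domains bind, the heterochromatin proteins Cbx1 (4.63) and Cbx3 (5.58), Mphosph8 (9.41) and Pphln1 (6.49) of the HUSH complex, Uhrf1 (6.24), which guides maintenance methylation, Chd3 (8.64 and 8.56 at 2 TSSs) of the NuRD complex, and the deacetylases Hdac1 (5.19) and Hdac2 (6.12). Cbx5 had an intron peak (6.21), and no peak was found at Setdb1, Atf7ip, Morc2a, Fam208a, Atrx, Daxx, Dnmt1 or Chd4. The list was drawn up with results of these data known and supports no comparison. The labelled cell type could not be checked, since peaks do not measure expression: of the adipocyte genes Adipoq, Fabp4, Pparg, Plin1, Cebpa and Lep, only Lep had a peak at its promoter or in the gene (11.2).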

How the data were processed

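The authors filtered paired-end reads with NGS QC Toolkit, aligned them with bowtie1 and called peaks with MACS2 2.1.0 (version from the submitters' processing notes) on 1 TET2 library against 1 input library. The deposited list gives the interval of each of 14103 peaks and the −log10 of its p-value, which was used only to rank and filter peaks. Of the 54 peaks at these genes, 11 have a −log10 p under 5, below the p-value setting the methods state. The sequencing yield is stated as an amount of data, and reads per library are not given in the sources used here, so the depth of each library in reads is unknown. The processing notes name mm10 and the methods GRCm39. GRCm38 was used without conversion. No peak midpoint lies past its chromosome ends and none falls on an unknown base. Coordinates of another assembly could pass this check as well, so it does not decide which assembly the peaks are on.

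The genes are GENCODE M21 protein-coding genes on chromosomes 7, 8, 13 and 17; these members and all lists were chosen with earlier results of these data known. A peak was placed by its midpoint: at the promoter within 1 kb of any TSS of the gene, otherwise in the exons or introns of the transcript with the longest coding sequence, with the exon of a single-exon gene counted as the last. Genes were called neighbours within 200 kb. Fingers (C, 2 or 4 residues, C, 12 residues, H, 3 to 5 residues, H) and a KRAB pattern were counted in the translated GENCODE coding sequences; the design had named RefSeq proteins, which were not used here. Copies of promoters and last exons were counted with blastn 2.17.0 (at least 100 bp and 90% identity, repeats masked). The CpG ratio and the copies of a promoter refer to the 1 kb around the TSS of the transcript with the longest coding sequence. The genes named were up to 10 with the largest −log10 p at a promoter, in a last exon and in an intron (7 genes had an intron peak), up to 5 in internal exons (3 genes had one), every gene with peaks in 2 or more places, 6 genes of known role, the largest cluster of each chromosome and 18 co-repressor genes; other genes were named after their values were seen. Shares have exact Clopper-Pearson intervals, densities exact Poisson intervals, and differences approximate intervals built from these limits. Medians of −log10 p have distribution-free intervals from the ranks of the peaks. Genes of a cluster are related, so all these intervals are too narrow if the genes vary together. Statistics used Python 3.11.15, scipy 1.17.1, numpy 2.4.6, pysam 0.24.0 and samtools 1.23.1, and figures matplotlib 3.10.9. The placement of peaks was tested on simulated data. The input library and read signal were not analysed here.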

Additional observations from a re-analysis of the deposited data

How the results depend on the processing

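Most values stayed within the counting interval of the value reported: 161 of 170, over 12 results and 16 alternatives, among them other promoter windows, any base of a peak in place of its midpoint, other transcript sets, no peaks of at least 80% repeat-masked bases, and leaving out each chromosome in turn. The 9 others all came from keeping only peaks of −log10 p of at least 8, which leaves 12 of the 54 peaks. With these, 3.24% of the Zfp genes had a promoter peak, 2.16% a last exon peak, 0.541% an intron peak and 5.41% any peak; last exon peaks fell to 7.57 per Mb, the difference in promoter share from other coding genes was -4.41 percentage points (-6.48 to -0.708), and that in last exon share between genes with and without the KRAB pattern -4.58 (-14.1 to 0.895). The median −log10 p was then 8.95 at promoters and 8.93 in last exons, by construction. No difference that lay beyond its interval changed sign. The difference in promoter share between genes with and without a neighbour was -4.52 (-16.2 to 2.09) with these peaks, -11.2 (-24.3 to 0.234) with a joining distance of 50 kb and -14.1 (-33.6 to 2.95) without chromosome 7; the cause was not tested. The excess of last exon peaks per Mb, within its interval throughout, was -0.865 with these peaks. The KRAB comparison was added after the data had been seen. Counts of blastn matches over all 14103 peaks were not run, and the repeat-masked peaks stood in for them. No paired analysis was possible because the TET2 and the input library form groups of 1 and only the TET2 peaks were used. With 1 library, sample-to-sample variation cannot be estimated.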
